A study of Mus musculus with 6 samples.

Results

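The submitters describe the cells studied as primary hepatic stellate cells of the mouse. The genes of protein folding, stress signalling and secretory transport in the endoplasmic reticulum (ER) were followed in them. They were 38 genes chosen by symbol and placed in 6 classes by function, and all 38 were among the 35999 symbols of the deposited expression table. The cells were taken on days 1, 4 and 7, with 2 RNA libraries per day, so 6 altogether. By their labels the day 1 libraries are replicates 2 and 3, and those of either later day are replicates 1 and 2. Values in pairs are given here in that order. The labels name only liver as the tissue and primary liver cells as the cell type, and give no strain, treatment or genotype. The starting point of the day count is not stated, and neither is the source of each library (its own culture or animal, or a shared one). All p-values therefore rest on a spread among libraries that could be only technical.

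Secreted and membrane proteins enter the ER through the Sec61 channel, fold there with the help of chaperones and disulphide isomerases, and leave in vesicles coated with COPII. Unfolded protein in the ER is sensed by the membrane proteins IRE1 (encoded by Ern1), ATF6 and PERK (Eif2ak3), which act through the transcription factors XBP1, cleaved ATF6 and ATF4 to raise the expression of chaperones and degradation factors, the unfolded protein response. Activated hepatic stellate cells are known as the main collagen-producing cells of the injured liver, and procollagen needs folding factors of its own, such as the chaperone HSP47 (Serpinh1), before it can leave the ER.

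The values are the authors' deposited TPM (transcript abundance as a share of a fixed total), given once per symbol and library. TPM is a share of the library, and 12 predicted gene models that carry satellite-like repeat sequence took 17.4% and 26.2% of the total on day 1 but 0.0594% to 0.0913% later. Each comparison was therefore also fitted on TPM rescaled without these models ("rescaled") and on values scaled by median ratios, and an abundant gene's change from day 1 was about 0.35 lower on the log2 scale after rescaling. Within day 1, several of the ER genes were higher in replicate 3, the library with the larger share of these models. Among them were Ern1, Creb3l1, Syvn1, Hyou1, Sec31a, Fkbp10, Pdia5 and Pdia3. Whether the models' source also adds to these genes' values was not tested. Sequencing depth is unknown, because TPM does not record it. The labelled cell type was checked against marker lists. The 15 stellate cell and myofibroblast markers summed to 296 and 245 TPM on day 1 and to 2014 to 2210 TPM later, and 12 of the 14 tested were called higher on day 4 than on day 1. The 15 macrophage and Kupffer cell markers summed to more in every library, with 14153 and 11242 TPM on day 1 and 26596 to 28914 TPM later (11 higher and 2 lower of 15 tested). The 10 sinusoidal endothelial markers summed to 1319 to 1520 TPM over the 6 libraries (4 higher, 2 lower of 10, and 3 higher, 5 lower after rescaling). The 12 hepatocyte markers went from 67.5 and 55.0 TPM to between 3.93 and 6.09 TPM (9 lower of 9 tested), with Tat listed at 0 in the 4 later libraries. The 10 plasma and B cell markers went from 86.8 and 81.2 TPM to between 30.6 and 46.1 TPM (2 higher, 3 lower of 5 tested), and the 8 mesothelial markers from 7.86 and 6.87 TPM to between 46.9 and 81.5 TPM (7 higher of 7 tested). After rescaling, 11 stellate, 10 macrophage, 2 plasma and B cell and 6 mesothelial markers were called higher, and 3 macrophage, 9 hepatocyte and 3 plasma and B cell markers lower. No marker was at 0 in every library, and the part of these cell types in the results below was not tested. Since macrophage markers outweighed stellate markers in every library, the ER gene values cannot be assigned to stellate cells. In these bulk libraries, fewer cells of a type and less RNA per cell cannot be told apart.

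Day 4 differed from day 1 in the make-up of the ER genes. Factors that handle procollagen, namely Serpinh1 and Fkbp10, the retrieval receptor Kdelr3 and the COPII coat gene Sec23a rose by 1.01 to 2.05 on the log2(TPM + 1) scale. Of the chaperones 6 of 11 rose as deposited, and of the disulphide isomerases 3 of 5, by 0.47 to 1.04. After rescaling, 3 of the 11 and 1 of the 5 were called higher, with class medians of 0.11 and 0.19. The stress sensor gene Ern1 fell. Of the 38 genes, 17 (44.7%) were called higher and 2 (5.26%), Dnajb9 and Ern1, were called lower, by limma at a Benjamini-Hochberg adjusted p under 0.05. Over all 14373 genes tested, 25% were called higher and 11.6% lower in the same comparison. At an unadjusted p under 0.05, 23 of the 38 passed and 48.3% of all genes. The median change of the 38 was 0.36, and that of all genes 0.11. The rescaled fit called 10 of the 38 higher and 6 lower (14.1% and 23.7% of all genes), with medians of 0.02 for the 38 and -0.22 for all genes. Median-ratio scaling called 11 higher and 5 lower (19.3% and 16.4% of all genes), with medians of 0.22 and -0.02.

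Under all 3 scalings, 10 genes were called higher: Calr, Dnajc3, Sdf2l1, P4hb, Serpinh1, Fkbp10, Herpud1, Sec61b, Sec23a and Kdelr3. Dnajb9 and Ern1 were called lower under all 3. In 27 of the 38 genes both day 4 libraries lay above both day 1 libraries, in 7 both lay below, and in Hyou1, Xbp1, Sec24d and Sec31a the days overlapped, where 43% and 27.8% of all tested genes lay above and below. The number of calls depended on single libraries. Without day 4 replicate 1 or 2, limma called 6 or 5 genes higher and 0 lower, and without day 7 replicate 1 or 2 it called 11 or 10 higher and 1 lower. Without day 1 replicate 2 it called 23 higher and 8 lower, and without day 1 replicate 3 it called 21 higher and 3 lower. When a library was left out, the other library of its day was assumed to vary like those of the other days. Without a day 1 library, the difference between the 2 day 1 libraries drops out of the fit. A call gained in that way is therefore not read as a change. Dnajc3, Serpinh1, Fkbp10, Sec23a and Kdelr3 were called higher in each of these fits and under each of the 15 alternatives run.

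**Figure D1:**
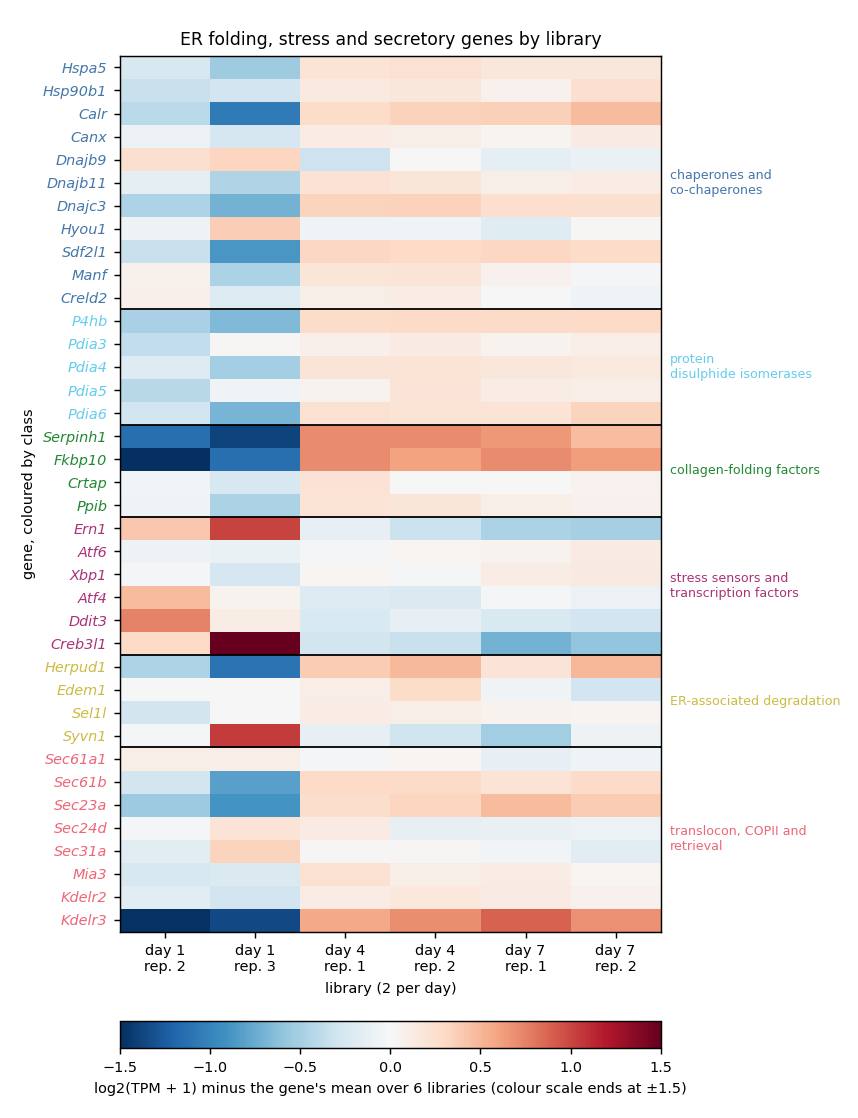
Expression of the 38 genes (rows, grouped by class) in the 6 libraries (columns), as log2(TPM + 1) minus each gene's mean over the libraries; red is above and blue below that mean. The day 1 libraries stand apart from the other 4, with Serpinh1, Fkbp10 and Kdelr3 low and Ern1 and Creb3l1 high on day 1.

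The 4 collagen-folding factors had a median change of 1.21 from day 1 to day 4, and 2 of them rose. Serpinh1 (HSP47), a chaperone that binds procollagen (chr7:99345376-99353239 on GRCm38, minus strand), stood at 118 and 98.3 TPM on day 1, 422 and 422 TPM on day 4, and 405 and 356 TPM on day 7. The 4 later libraries all lay more than 3-fold above either day 1 library. The change from day 1 to day 4 was 1.96 on the log2(TPM + 1) scale (SE 0.14, limma adjusted p = 0.000252), which is 3.9-fold between mean TPM values. Its rank by TPM among tested genes moved from 1104 and 1251 on day 1 to 309 and 305 on day 4.

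Fkbp10 (FKBP65), a prolyl isomerase of the ER that assists collagen folding (chr11:100415697-100424824, plus strand), stood at 8.10 and 10.97 TPM on day 1, 41.7 and 38.8 TPM on day 4, and 41.7 and 39.5 TPM on day 7. Every later library was above both day 1 libraries, with a log2 change to day 4 of 1.98 (SE 0.15, limma adjusted p = 0.000339; 4.22-fold in mean TPM). Rescaling left both calls in place, with log2 changes of 1.61 for Serpinh1 and 1.66 for Fkbp10. The exons of Fkbp10 share 193 bases with Nt5c3b on the opposite strand, a gene of at most 29.1 TPM, and the use of strand in the authors' quantification is not given in the sources used here.

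The other 2 collagen-folding factors did not pass the test. Ppib (cyclophilin B), the peptidyl-prolyl isomerase that works with the prolyl 3-hydroxylase complex, was the most abundant of the class, at 450.1 and 341 TPM on day 1, 545 and 536 TPM on day 4, and 501 and 496 TPM on day 7. Both later days lay above day 1, but the log2 change to day 4 was 0.46 (SE 0.16, limma adjusted p = 0.0687) and 0.11 after rescaling. Crtap, a partner of that complex, ranged from 40.9 to 56.8 TPM over the 6 libraries, with a log2 change of 0.25 (adjusted p = 0.17), which became -0.10 after rescaling. Ppib and Crtap gained a call when a day 1 library was left out, a fit that ignores the spread within day 1. The exons of Ppib overlap those of Snx22 on the opposite strand by 825 bases, and Snx22 did not exceed 0.423 TPM.

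Of the 11 chaperones and co-chaperones, 6 rose from day 1 to day 4 and 1 fell, with a median log2 change of 0.47. After rescaling 3 were called higher and 1 lower, with a median of 0.11. Hspa5 (BiP), the ER member of the Hsp70 family, was the most abundant of all 38 genes in every library, at 657 and 538 TPM on day 1, 893 and 910.5 TPM on day 4, and 872 and 876 TPM on day 7. The later libraries all lay above day 1, by 0.60 on day 4 (SE 0.15, limma adjusted p = 0.0248; 1.51-fold in mean TPM). This call was lost after rescaling (log2 change 0.24, adjusted p = 0.0865), under median-ratio scaling (0.45, adjusted p = 0.0553), and without either day 4 library (adjusted p = 0.144 and 0.166) or either day 7 library (0.0742 and 0.0745).

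Calr (calreticulin), a calcium-binding lectin chaperone for glycoproteins, stood at 458 and 291 TPM on day 1, 736 and 769 TPM on day 4, and 778 and 844 TPM on day 7. Day 1 was below both later days, and the log2 change to day 4 was 1.04 (SE 0.22, limma adjusted p = 0.0156), or 0.68 after rescaling (adjusted p = 0.0273). Its membrane-bound relative Canx (calnexin) ranged from 376 to 485 TPM and was not called (log2 change 0.27, adjusted p = 0.145; -0.09 after rescaling). Within each library, Calr was 109% and 77.5% of Canx on day 1 and 153% to 174% of it later, a ratio that scaling does not touch.

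Dnajc3 (P58IPK), a co-chaperone of BiP, stood at 45.8 and 38.5 TPM on day 1, 80.2 and 80.7 TPM on day 4, and 75.8 and 75.0 TPM on day 7. All 4 later libraries were above day 1, with a log2 change to day 4 of 0.92 (SE 0.12, limma adjusted p = 0.00209). Dnajb9 (ERdj4), another co-chaperone of BiP, went the other way, from 24.9 and 26.3 TPM on day 1 to 16.7 and 20.8 TPM on day 4 and 18.7 and 19.4 TPM on day 7. Both later days lay below day 1 and overlapped with each other, and the log2 change to day 4 was -0.44 (SE 0.14, limma adjusted p = 0.0478), or -0.78 after rescaling (adjusted p = 0.0134). Without day 1 replicate 3, either day 4 library or either day 7 library, the adjusted p of Dnajb9 lay between 0.0698 and 0.26. Dnajc3 was 184% and 146% of Dnajb9 on day 1 and 386% to 481% of it later.

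Sdf2l1, a partner of the BiP cycle, rose from 53.3 and 36.4 TPM to 84.0 and 83.4 TPM (log2 change 0.91, SE 0.18, limma adjusted p = 0.0111). Rescaling kept that call (0.56, adjusted p = 0.026). Hsp90b1 (GRP94), the ER member of the Hsp90 family, and the co-chaperone Dnajb11 were called higher as deposited, by 0.47 (adjusted p = 0.0334) and 0.50 (0.0301), but not after rescaling (0.11 and 0.14) or under median-ratio scaling (adjusted p = 0.0971 and 0.0761). The exons of Hsp90b1 share 415 bases with the pseudogene 1810014B01Rik on the opposite strand. Calls were lost without either day 4 library for Calr (limma adjusted p = 0.081 and 0.0973), Sdf2l1 (0.0654 and 0.0665), Hsp90b1 (0.179 and 0.206) and Dnajb11 (0.157 and 0.143). Those of Hsp90b1 and Dnajb11 were also lost without either day 7 library, with adjusted p-values from 0.0746 to 0.0802.

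The remaining chaperones were not called on day 4. Manf, a small secreted ER stress protein, stood at 236 and 162 TPM on day 1, 256 and 259 TPM on day 4, and 235 and 222 TPM on day 7, so that day 7 lay between the day 1 libraries. Its log2 change to day 4 was 0.40 (SE 0.19, limma adjusted p = 0.144), and 0.04 after rescaling. Creld2, also induced by ER stress in other settings, was at 60.5 and 49.5 TPM on day 1, 60.8 and 61.8 TPM on day 4, and 57.1 and 55.1 TPM on day 7, a log2 change to day 4 of 0.16 (adjusted p = 0.338) that became -0.19 after rescaling. Hyou1 (GRP170), a nucleotide exchange factor for BiP, ranged from 66.6 to 97.4 TPM with a log2 change of -0.21 (adjusted p = 0.345). The 2 day 1 libraries differed by more than the days for Hyou1, at 71.7 and 97.4 TPM. For day 4, Canx, Manf, Creld2 and Hyou1 gained a call only without day 1 replicate 2, a fit that ignores the spread within day 1.

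The promoter stretches of several of these genes carry the ER stress response element (ERSE), the sequence through which ATF6, together with the factor NF-Y, and XBP1 are known to act on chaperone genes. Promoter windows from RefSeq (GRCm38.p6) were found by symbol for 31 of the 38 genes. The genes without one were Hyou1, Manf, Fkbp10, Atf6, Creb3l1, Sec61a1 and Kdelr2. The 250 bases before each start were searched on both strands. Starts were those of RefSeq. GENCODE M21 begins Hspa5 further upstream, at chr2:34771970, so the Hspa5 stretch below lies inside that annotated gene. The ERSE was spelled as CCAAT, 9 bases of any kind and CCACG. It was found in 8 of the 31 (25.8%) and in 35 of all 27025 genes with a window (0.13%). The 38 genes were chosen for their part in ER folding and stress, and this element is known from such genes. A higher share among them was therefore built into the choice and is only a description. The stretches below show the match in capitals with 5 bases on either side, each read 5′ to 3′ on the strand of its gene, so that a match on the other strand begins with CGTGG. They are shown because each holds a match while only some of these genes were called on day 4.
Hspa5, chr2:34772020-34772048, plus strand: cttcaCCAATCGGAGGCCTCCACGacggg
Hsp90b1, chr10:86705633-86705661, minus strand: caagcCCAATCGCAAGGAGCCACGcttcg
Hsp90b1, chr10:86705528-86705556, minus strand: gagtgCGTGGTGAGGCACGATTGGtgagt
Calr, chr8:84847070-84847098, minus strand: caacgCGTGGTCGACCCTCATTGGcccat
Canx, chr11:50325795-50325823, minus strand: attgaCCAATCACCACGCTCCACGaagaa
Creld2, chr15:88819515-88819543, plus strand: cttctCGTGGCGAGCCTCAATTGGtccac
Pdia6, chr12:17266486-17266514, plus strand: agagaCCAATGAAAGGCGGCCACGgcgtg

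The remaining ERSE matches were in Dnajc3 and Syvn1, which lay near either end of the range of changes of the 8. Their 250 bases upstream of the start are given with those of Herpud1, which holds the related ERSE-II (ATTGG, 1 base of any kind and CCACG) and the amino acid response element bound by ATF4 (AARE, TGATGCAA), and of Kdelr3, which holds the XBP1 and ATF6 element UPRE (TGACGTGG). Capitals mark the matches, on either strand.
Dnajc3, chr14:118937682-118937931, plus strand: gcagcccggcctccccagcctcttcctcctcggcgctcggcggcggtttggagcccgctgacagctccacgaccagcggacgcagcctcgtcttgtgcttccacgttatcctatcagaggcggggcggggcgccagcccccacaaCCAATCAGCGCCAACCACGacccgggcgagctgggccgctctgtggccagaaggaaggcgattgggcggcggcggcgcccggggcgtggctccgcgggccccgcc
Syvn1, chr19:6046326-6046575, plus strand: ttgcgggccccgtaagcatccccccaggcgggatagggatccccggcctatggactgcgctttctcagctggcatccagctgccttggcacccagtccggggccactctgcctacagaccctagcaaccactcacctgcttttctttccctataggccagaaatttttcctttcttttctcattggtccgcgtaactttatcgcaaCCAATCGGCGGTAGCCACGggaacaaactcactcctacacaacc
Herpud1, chr8:94386179-94386428, plus strand: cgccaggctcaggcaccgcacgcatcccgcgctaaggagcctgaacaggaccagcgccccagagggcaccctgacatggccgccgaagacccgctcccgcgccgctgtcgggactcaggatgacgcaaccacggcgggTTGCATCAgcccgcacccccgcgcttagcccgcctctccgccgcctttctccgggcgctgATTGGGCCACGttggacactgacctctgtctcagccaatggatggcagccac
Kdelr3, chr15:79516158-79516407, plus strand: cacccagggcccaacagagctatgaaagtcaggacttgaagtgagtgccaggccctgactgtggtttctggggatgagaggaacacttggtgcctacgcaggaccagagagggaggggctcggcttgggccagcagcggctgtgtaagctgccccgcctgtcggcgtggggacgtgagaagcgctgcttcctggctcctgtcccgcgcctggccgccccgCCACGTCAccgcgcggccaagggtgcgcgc

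Counted from the start, with -1 as the base before it, the ERSE lay at -105 to -87 in Dnajc3 and at -44 to -26 in Syvn1. The ERSE-II of Herpud1 lay at -52 to -42 and its AARE at -112 to -105, and the UPRE of Kdelr3 lay at -30 to -23. The ERSE-II was found in 1 of the 31 genes and in 0.037% of all genes with a window, and the AARE in 1 of the 31 and in 0.918% of all. The UPRE was found in 2 of the 31, Kdelr3 and Sec24d, and in 0.603% of all. As for the ERSE, these shares only describe genes chosen by function. The heat shock element was spelled as GAA, TTC and GAA with 2 bases of any kind after each of the first parts. It was in none of the 31 searched stretches and in 0.514% of all genes. The ERSE and ERSE-II share the letters CCACG and ATTGG or CCAAT, but none of the 31 searched stretches held a full match to both. The search stopped at the start. The Herpud1 stretch ends there in CCAAT, 9 bases and CCAC, an ERSE but for its last letter, and the next base was not searched. Of the 8 genes with an ERSE match, 5 were called higher on day 4 than on day 1 and 0 lower by limma, with changes from -0.72 to 1.04 and a median of 0.53. After rescaling 2 were called higher and 0 lower. The 23 genes with a window and no full ERSE match in the searched bases, Herpud1 among them, had 10 called higher and 2 lower. Their median was 0.35, and after rescaling 7 were called higher and 4 lower. The difference between these groups of genes was not tested. A match is a run of letters in the window and not evidence of binding.

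The protein disulphide isomerases, which form and reshuffle disulphide bonds, had 3 of 5 members called higher on day 4 and a median log2 change of 0.55 (0.19 after rescaling, with 1 called). P4hb, which is also the beta subunit of the collagen prolyl 4-hydroxylase, was the most abundant, at 329 and 289.8 TPM on day 1, 559.8 and 563 TPM on day 4, and 565 and 564 TPM on day 7. Its later libraries lay within 5 TPM of each other and all above day 1, with a log2 change to day 4 of 0.86 (SE 0.13, limma adjusted p = 0.00405), or 0.50 after rescaling (adjusted p = 0.00808). P4hb was 50.1% and 53.9% of Hspa5 within the day 1 libraries and 61.8% to 64.8% of it later.

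Pdia6, which modulates IRE1 and PERK signalling besides its isomerase role, stood at 199 and 149 TPM on day 1, 285 and 281 TPM on day 4, and 281 and 306 TPM on day 7. Both later days lay above day 1, by 0.71 on day 4 (SE 0.16, limma adjusted p = 0.0182), with 0.36 after rescaling (adjusted p = 0.0529). Pdia4 (ERp72) stood at 138 and 111 TPM on day 1, 181 and 182 TPM on day 4, and 178 and 175 TPM on day 7, again with no overlap. Its log2 change of 0.55 (SE 0.13, adjusted p = 0.0233) was not called after rescaling (0.19, adjusted p = 0.137) or under median-ratio scaling (adjusted p = 0.0569). Pdia3 (ERp57), the partner of calnexin and calreticulin, ranged from 188 to 264 TPM, and Pdia5 from 5.75 to 9.29 TPM. Neither passed the test (log2 changes 0.27 and 0.35), and that of Pdia3 became -0.08 after rescaling. Without either day 4 library the calls were lost for P4hb (limma adjusted p = 0.0517 and 0.0551), Pdia6 (0.108 and 0.106) and Pdia4 (0.127 and 0.139), and that of Pdia4 also without either day 7 library (0.0634 and 0.0636). Pdia3 and Pdia5 gained a call without day 1 replicate 3, a fit that ignores the spread within day 1.

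**Figure D2:**
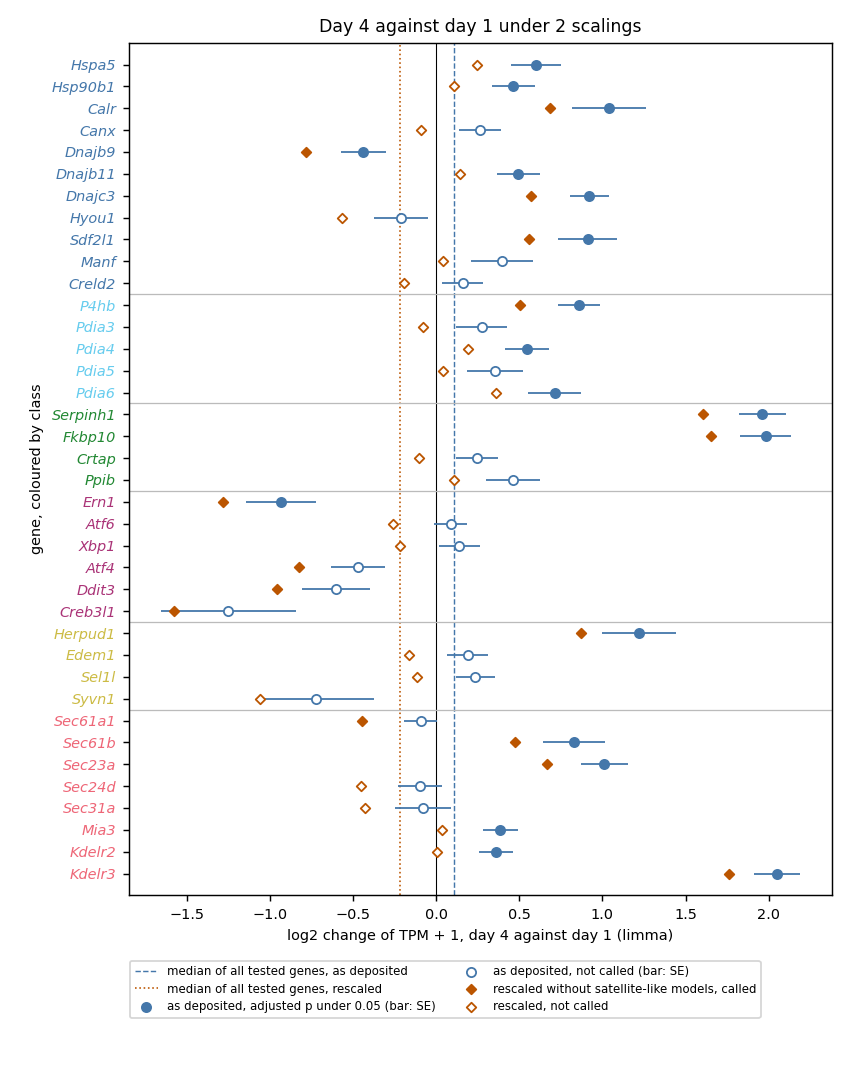
Change from day 1 to day 4 of each of the 38 genes (rows, coloured by class), on the log2(TPM + 1) scale. Circles are deposited TPM with a bar of 1 SE, diamonds are TPM rescaled without satellite-like models, filled symbols passed limma's adjusted p of 0.05, and vertical lines are the medians of all tested genes (0.11 and -0.22). Serpinh1, Fkbp10 and Kdelr3 lie farthest to the right on both scales, and Creb3l1 and Ern1 farthest to the left.

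None of the 6 stress sensors and transcription factors was called higher on day 4 under any of the 3 scalings, 1 was called lower as deposited, and 4 were called lower under each of the other scalings. Their median log2 change was -0.54 as deposited, -0.89 after rescaling and -0.68 under median-ratio scaling. Ern1, which encodes the sensor kinase and RNase IRE1 alpha (chr11:106394650-106487852, minus strand), stood at 25.6 and 39.5 TPM on day 1, 17.5 and 15.02 TPM on day 4, and 13.5 and 13.2 TPM on day 7. Both day 1 libraries lay above all others, although they also differed widely from each other. The log2 change to day 4 was -0.93 (SE 0.21, limma adjusted p = 0.0178) and was not called without day 4 replicate 1 (adjusted p = 0.0598) or 2 (0.104). Within the libraries, Ern1 was 87.3% and 136% of Atf6 on day 1 and 38.8% to 57.4% of it later.

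Creb3l1 (OASIS), a membrane-bound transcription factor known to act on collagen genes in mouse bone (chr2:91982328-92024502, minus strand), stood at 4.92 and 13.8 TPM on day 1, 3.02 and 2.86 TPM on day 4, and 1.96 and 2.23 TPM on day 7. The days did not overlap, but the day 1 libraries differed more from each other than replicate 2 did from day 4. Its log2 change to day 4 was -1.25 (SE 0.41, limma adjusted p = 0.0554), with adjusted p-values of 0.0449 after rescaling and 0.046 under median-ratio scaling. Creb3l1 was called lower without day 1 replicate 2 and not called without day 1 replicate 3. Both fits ignore the spread within day 1. By day 7 the fall from day 1 was called, with a log2 change of -1.60 (SE 0.41, adjusted p = 0.0239), but not without day 7 replicate 1 (0.117) or 2 (0.0984).

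Atf4, the transcription factor of the integrated stress response, was the most abundant of the class, at 407 and 304 TPM on day 1, 257 and 251 TPM on day 4, and 287 and 277 TPM on day 7. All later libraries lay below day 1. The log2 change to day 4 was -0.47 (SE 0.16, limma adjusted p = 0.0652) as deposited, -0.83 after rescaling (adjusted p = 0.00402), and called under median-ratio scaling (adjusted p = 0.0278). Ddit3 (CHOP), a target of ATF4 linked to cell death, stood at 87.2 and 55.9 TPM on day 1, 44.0 and 47.3 TPM on day 4, and 43.7 and 41.9 TPM on day 7. It too was below both day 1 libraries later, with a log2 change to day 4 of -0.60 (SE 0.20, adjusted p = 0.0614), or -0.96 after rescaling (adjusted p = 0.009). Atf4 and Ddit3 were called lower without either day 1 library, in fits that ignore the spread within day 1. The symbol Ddit3 matches 2 genes in GENCODE M21, and the exons of the gene at chr10:127290774-127296288 share 68 bases with Mars on the opposite strand.

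Measured against Hspa5 within the same library, Ddit3 went from 13.3% and 10.4% on day 1 to between 4.79% and 5.20% later, and Atf4 from 62.0% and 56.6% to between 27.6% and 33.0%. Atf6 and Xbp1 were not called. Atf6 ranged from 29.1 to 34.0 TPM over the 6 libraries (log2 change to day 4 0.09, adjusted p = 0.514; -0.26 after rescaling). Xbp1 ranged from 131 to 171 TPM (0.14, limma adjusted p = 0.394, and -0.21 after rescaling). Xbp1 was called higher only without day 1 replicate 2, a fit that ignores the spread within day 1. The table gives 1 value per symbol, so the spliced form of Xbp1 mRNA made by IRE1 cannot be seen, and neither can the cleavage of ATF6 or the translation of ATF4.

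**Figure D3:**
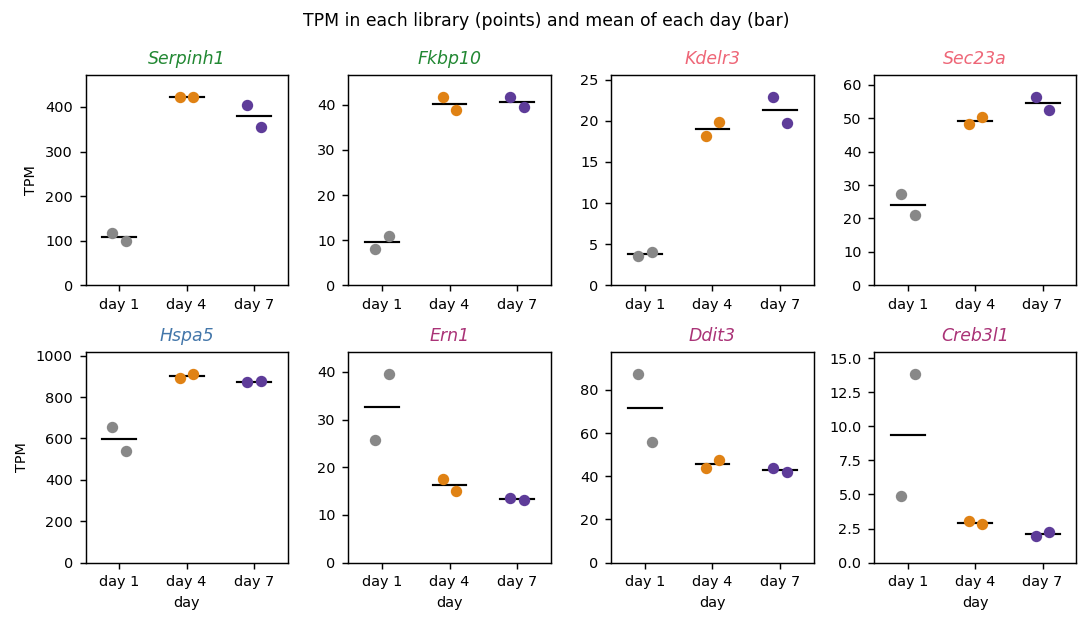
TPM of 8 of the genes in each library (points) by day, with the mean of each day as a bar; each panel has its own linear axis from 0. Serpinh1, Fkbp10, Kdelr3, Sec23a and Hspa5 lie higher in all 4 later libraries than in either day 1 library, and Ern1, Ddit3 and Creb3l1 lie lower.

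The 4 genes of ER-associated degradation, which sends misfolded proteins back to the cytosol for the proteasome, did not move together. Herpud1, a membrane scaffold of the degradation complex, stood at 37.9 and 23.96 TPM on day 1, 68.9 and 74.3 TPM on day 4, and 60.3 and 74.7 TPM on day 7. Its later libraries all lay above day 1, by 1.22 on day 4 on the log2 scale (SE 0.22, limma adjusted p = 0.00873) and by 0.87 after rescaling (adjusted p = 0.0182). The call was lost without day 4 replicate 2 (adjusted p = 0.0584) and kept without replicate 1 (0.0445).

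Syvn1 (HRD1), the ubiquitin ligase of that complex, stood at 8.51 and 18.9 TPM on day 1, 7.85 and 6.82 TPM on day 4, and 5.72 and 8.13 TPM on day 7. The later libraries all lay below day 1, but the day 1 libraries differed by more than 2-fold, and the log2 change to day 4 of -0.72 (SE 0.35, limma adjusted p = 0.154) was not called. Syvn1 was called lower only without day 1 replicate 2, a fit that ignores the spread within day 1. Herpud1 was 446% and 127% of Syvn1 on day 1 and 878% to 1089% of it later. Sel1l, the adaptor of the ligase, ranged from 46.5 to 60.9 TPM and was not called (log2 change 0.24, limma adjusted p = 0.165, and -0.11 after rescaling). Sel1l gained a call without day 1 replicate 3, a fit that ignores the spread within day 1. Edem1, a mannosidase-like factor that marks glycoproteins for degradation, stood at 60.5 and 60.4 TPM on day 1, 65.0 and 73.5 TPM on day 4, and 58.5 and 49.5 TPM on day 7. It was highest on day 4 with no overlap between days, but its log2 change to day 4 was 0.19 (adjusted p = 0.263), and -0.16 after rescaling.

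Among the 8 genes of translocation, COPII export and retrieval, 5 were called higher on day 4 and 0 lower, with a median log2 change of 0.37 (0.02 after rescaling, with 3 called higher and 1 lower). Kdelr3, a receptor that returns escaped ER proteins from the Golgi (chr15:79516411-79527739, plus strand), had the largest rise of the 38. It stood at 3.62 and 4.05 TPM on day 1, 18.2 and 19.9 TPM on day 4, and 22.9 and 19.8 TPM on day 7. Day 1 lay far below both later days, with a log2 change to day 4 of 2.05 (SE 0.14, limma adjusted p = 0.000202; 4.97-fold in mean TPM) and 1.76 after rescaling. Its paralog Kdelr2 stood at 71.2 to 77.2 TPM on day 1 and 90.7 to 96.9 TPM later, a change to day 4 of 0.36 (adjusted p = 0.0359) that was 0.01 after rescaling. As a share of Kdelr2 in the same library, Kdelr3 was 4.69% and 5.68% on day 1 and 19.3% to 24.2% later.

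Sec23a, a subunit of the inner COPII coat whose loss impairs collagen secretion in humans and zebrafish, stood at 27.3 and 20.97 TPM on day 1, 48.2 and 50.2 TPM on day 4, and 56.3 and 52.5 TPM on day 7. All later libraries lay above day 1, with a log2 change to day 4 of 1.01 (SE 0.14, limma adjusted p = 0.00334) and 0.67 after rescaling (adjusted p = 0.00818). Its coat partner Sec24d ranged from 37.996 to 48.1 TPM and the outer coat subunit Sec31a from 49.0 to 69.4 TPM, and neither was called (log2 changes -0.10 and -0.08). Sec23a was 66.2% and 43.6% of Sec24d on day 1 and 106% to 146% of it later. An antisense gene, Gm17529, shares 431 exonic bases with Sec23a.

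Sec61b, the beta subunit of the translocation channel, was the most abundant of the class, at 221 and 151 TPM on day 1, 327 and 324 TPM on day 4, and 308 and 325 TPM on day 7. The later libraries lay above day 1, by 0.83 on day 4 (SE 0.19, limma adjusted p = 0.0183) and by 0.47 after rescaling (adjusted p = 0.0417). The channel's pore subunit Sec61a1 ranged from 116 to 136 TPM, was not called as deposited (log2 change -0.09) and was called lower after rescaling (-0.45, adjusted p = 0.0175). Mia3 (TANGO1), the receptor that loads procollagen into COPII carriers, stood at 99.3 and 100.6 TPM on day 1, 137 and 125 TPM on day 4, and 127 and 119.6 TPM on day 7. Both later days lay above day 1 and overlapped with each other, but the log2 change to day 4 of 0.39 (SE 0.11, adjusted p = 0.0337) was 0.03 after rescaling and not called (adjusted p = 0.819). Under median-ratio scaling neither Mia3 (adjusted p = 0.109) nor Kdelr2 (0.144) was called. Without either day 4 library, calls were lost for Sec61b (limma adjusted p = 0.0997 and 0.102), Mia3 (0.23 and 0.129) and Kdelr2 (0.165 and 0.213). Those of Mia3 and Kdelr2 were also lost without either day 7 library (0.0828 to 0.0874), and that of Sec61b without day 7 replicate 2 (0.0501). Sec31a was called lower only without day 1 replicate 2, a fit that ignores the spread within day 1.

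The share of each class in the summed TPM of the 38 genes does not depend on the scale of a library. The 38 genes summed to 5481 and 4688 TPM on day 1, 7219 and 7257 TPM on day 4, and 7055 and 7187 TPM on day 7. Stress sensors and transcription factors made up 12.9% and 12.2% of this sum on day 1 and 6.92% to 7.75% later. Collagen-folding factors made up 11.4% and 10.5% on day 1 and 13.1% to 14.8% later, and protein disulphide isomerases 15.7% and 17.1% on day 1 and 17.9% to 18.3% later. Chaperones made up 45.3% and 43.9% on day 1 and 45.7% to 47.1% later, and translocation and transport genes 11.9% and 12.8% on day 1 and 11.4% to 11.8% later. In these 5 classes no later library overlapped with day 1. Degradation genes held 2.80% and 3.40% on day 1 and 2.60% to 2.96% later, with overlap. The shares rest largely on the most abundant genes of a class.

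**Figure D4:**
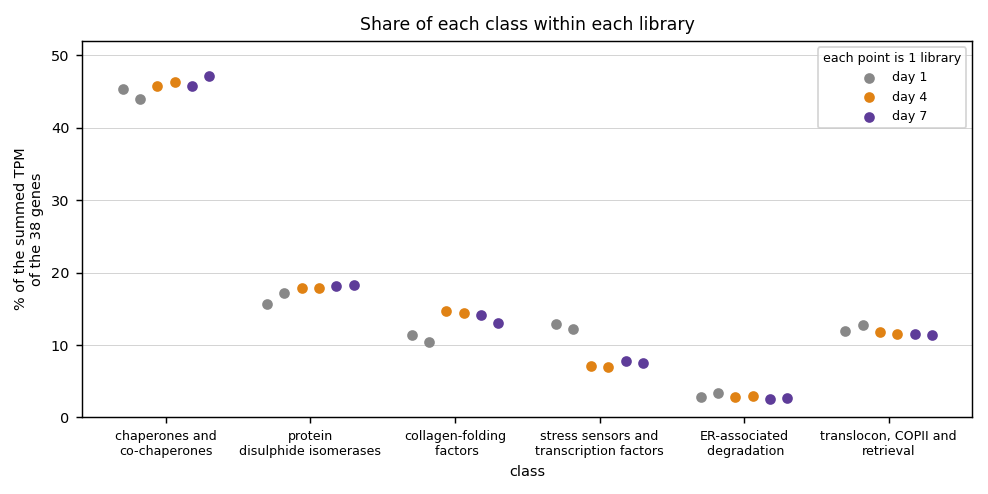
Share of each of the 6 classes (horizontal axis) in the summed TPM of the 38 genes, in percent (vertical axis), with 1 point per library coloured by day. The stress sensors and transcription factors go from 12.2% to 12.9% on day 1 to 6.92% to 7.75% later, while the collagen-folding factors go from 10.5% to 11.4% to between 13.1% and 14.8%.

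From day 4 to day 7 no ER gene passed the test. Limma called 0 of the 38 higher and 0 lower, where 0.466% of all 14373 genes were called in either direction, and 1 of the 38 passed at an unadjusted p under 0.05, where 11.9% of all genes did. That gene was Edem1, which was 0.35 lower on day 7 (95% confidence interval -0.655 to -0.053, unadjusted p = 0.0279 and adjusted p = 0.346, limma). The changes of the 38 ranged from -0.35 to 0.15 with a median of -0.04, beside -0.05 over all genes. The 95% confidence intervals differed in width between genes. They were widest for Creb3l1 (-1.34 to 0.64) and Syvn1 (-0.95 to 0.77), and narrower for Hspa5 (-0.41 to 0.32) and Atf6 (-0.16 to 0.33). Each interval rests on 1 spread per gene taken over all 3 days, so the day 1 libraries also set its width. For Creb3l1 the standard deviations on days 1, 4 and 7 were 6.30, 0.117 and 0.191 TPM. For Atf6 they were 0.221, 0.815 and 1.30 TPM. Changes within a gene's own interval could not be told apart by this fit. Both day 7 libraries lay above both day 4 libraries in 6 of the 38 genes and below them in 15, where 18.8% and 33.9% of all genes did so. Class medians lay between -0.10 and -0.00. Serpinh1 went from a mean of 422 TPM on day 4 to 381 TPM on day 7 (log2 change -0.15, 95% confidence interval -0.49 to 0.19), and Kdelr3 from 19.0 to 21.3 TPM (0.15, -0.18 to 0.49).

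From day 1 to day 7, 15 of the 38 genes (39.5%) were called higher and 3 (7.89%) lower, where 24.7% and 16.8% of all genes were. This comparison shares its day 1 libraries with that of day 4 against day 1. The 3 called lower were Ern1 (log2 change -1.19, SE 0.21, limma adjusted p = 0.00662), Creb3l1 and Ddit3 (-0.69, SE 0.20, adjusted p = 0.0374). After rescaling 11 genes were called higher and 9 lower, where 14.9% and 31.6% of all genes were, and under median-ratio scaling 13 and 4, where 22% and 19.7% were. Those called higher under all 3 scalings were Calr, Dnajc3, Sdf2l1, P4hb, Pdia6, Serpinh1, Fkbp10, Herpud1, Sec61b, Sec23a and Kdelr3, and Ern1, Ddit3 and Creb3l1 were called lower under all 3. Creld2 was 0.03 higher as deposited and was called lower after rescaling (-0.32, adjusted p = 0.0345). The count called higher was 7 or 6 without day 7 replicate 1 or 2, 11 without either day 4 library, and 21 or 20 without day 1 replicate 2 or 3. The count called lower was 1 or 0, 2 and 6 or 4 in the same fits. Ern1 had an adjusted p of 0.0506 without day 7 replicate 2, and that of Ddit3 lay between 0.0673 and 0.156 without any library of the later days. Dnajc3, P4hb, Serpinh1, Fkbp10, Sec23a and Kdelr3 were called under each of the 15 alternatives. A test for any change over the 3 days (limma's moderated F test) called 16 of the 38 (42.1%), where 37.2% of all genes were called.

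Genes of the same pathways outside the 38 were counted from 8 lists of 146 symbols, of which 139 were tested. From day 1 to day 4, 47 (33.8%) were called higher and 8 (5.76%) lower, where 25% and 11.6% of all genes were. After rescaling 23 (16.5%) were called higher and 22 (15.8%) lower, where 14.1% and 23.7% of all genes were. From day 4 to day 7 limma called 0. The list of other collagen prolyl isomerases and hydroxylases had 13 of 15 tested genes called higher and 0 lower (10 and 0 after rescaling), with a median change of 1.26. Plod2, a lysyl hydroxylase of collagen telopeptides, stood at 4.63 and 3.11 TPM on day 1, 33.6 and 27.6 TPM on day 4, and 40.5 and 39.7 TPM on day 7 (log2 change to day 4 2.71, SE 0.18, limma adjusted p = 0.000207). All later libraries of Plod2 lay above day 1, as did those of Fkbp7, an ER prolyl isomerase (2.39, SE 0.22, adjusted p = 0.000649).

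Among other genes of oxidative folding, 8 of 13 rose and 0 fell (5 and 2 after rescaling). Prdx4, a peroxiredoxin that passes oxidising equivalents to disulphide isomerases, went from 84.4 and 53.5 TPM on day 1 to 167 and 162 TPM on day 4 (log2 change 1.28, SE 0.21, limma adjusted p = 0.00577). The sulfhydryl oxidase gene Qsox1 rose by 1.21 (SE 0.10, adjusted p = 0.000361), with no overlap between the days. Of the 19 tested genes of COPI and retrograde transport, 4 rose and 0 fell (1 and 2 after rescaling). One of them, the coat subunit gene Copz2, went from 4.27 and 4.28 TPM on day 1 to 22.8 and 20.5 TPM on day 4, by 2.10 on the log2 scale (SE 0.16, adjusted p = 0.000287). The cargo receptor gene Tmed3 rose by 0.69 as deposited (adjusted p = 0.0182) and was not called after rescaling (adjusted p = 0.0628).

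The list of other unfolded protein response and integrated stress genes had 3 of 18 called higher and 6 lower from day 1 to day 4 (2 and 8 after rescaling), with a median of -0.17. From day 1 to day 7, 6 were called higher and 6 lower (2 and 7 after rescaling), with a median of 0.22. Nck1, an adaptor that acts on translation control, and the membrane-bound transcription factor Creb3 rose by 0.94 and 0.91 (limma adjusted p = 0.00253 and 0.00257). The other genes called are named after their values were seen. Eif2ak3 (PERK) was called higher as deposited (0.62, adjusted p = 0.01) and not after rescaling (adjusted p = 0.0997). Called lower were Atf6b (-0.73), a relative of Atf6, the pseudokinase gene Trib3 (-0.62), the phosphatase subunits Ppp1r15b (-0.61) and Ppp1r15a (-0.47), which reverse the integrated stress response, the protease gene Mbtps2 (-0.56), which cleaves ATF6, and the ATF4 target Sesn2 (-0.46). These 6 were also called lower after rescaling.

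The remaining lists had median log2 changes from day 1 to day 4 between 0.14 and 0.36. Of 15 other degradation genes, 2 rose as deposited, the ubiquitin-conjugating enzyme gene Ube2j1 (0.62) and Edem3 (0.53), and 1 fell, with 0 and 3 called after rescaling. Of 22 signal peptidase and translocon genes 7 rose and 1 fell (3 and 4 after rescaling), and the signal peptidase subunit genes Spcs1 and Sec11c rose by 0.94 and 0.90 (limma adjusted p = 0.0336 and 0.00305). Spcs1 was not called after rescaling (adjusted p = 0.0727). In the list of oligosaccharyltransferase and glucosidase genes 7 of 15 rose and 0 fell (1 and 1 after rescaling), with the largest changes in Tusc3 (1.04, adjusted p = 0.00396) and Rpn1 (0.74, adjusted p = 0.0448), and Rpn1 was not called after rescaling. Among other COPII genes 3 of 22 rose and 0 fell (1 and 2 after rescaling), with the largest changes in Ergic3 (0.71, adjusted p = 0.00301) and Mcfd2 (0.61, adjusted p = 0.0275), and Mcfd2 was not called after rescaling. From day 1 to day 7, 46 of the 139 (33.1%) were called higher and 14 (10.1%) lower, where 24.7% and 16.8% of all genes were. After rescaling 23 (16.5%) and 33 (23.7%) were called, where 14.9% and 31.6% of all genes were. The largest changes there included Plod2 (3.10), Copz2 (2.16), Qsox1 (1.29), Sec11c (1.18), Tusc3 (1.14), Creb3 (0.93) and Atf6b (-0.89), each called in both fits.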

How the data were processed

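RNA from primary hepatic stellate cells was isolated with TRIzol and made into stranded libraries depleted of ribosomal RNA, per the labels' protocols. The authors deposited 1 TPM value per symbol and library. Trimmomatic, HISAT2 2.0.5, StringTie 1.3.3b and the builds mm10 and GRCm38 are named in the submitters' processing notes. Annotation, strand use and summing of transcripts: not given in the sources used here. Depth is unknown, since TPM keeps no counts.

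Genes at 1 TPM or more in at least 2 of 6 libraries (14373, with all 38 genes described) were fitted as log2(TPM + 1) with day as a factor in limma 3.58.1 (R 4.3.3; trend and robust moderation, 3 residual degrees of freedom). Such log2 changes understate those of low genes. P-values were adjusted by Benjamini-Hochberg over all genes tested, and the script was tested on simulated data. Satellite-like models share at least 10% of their 20-base words with Gm10800. Fold changes are ratios of mean TPM. Exons came from GENCODE M21, and promoters from RefSeq. Values per library are given for the 2 genes per class with the largest change in each consecutive comparison and for the most abundant gene, with others added for their role, and for the 2 called genes of each wider list with the largest change, some by their change alone. The genes and lists, and so the pairs of genes set in ratio, were chosen with earlier results of these data known. The labels name no batch.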

Additional observations from a re-analysis of the deposited data

How the results depend on the processing

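All days had 2 libraries, and unknown depth limits the precision of low genes. Of 1707 values of single genes under 15 alternatives, 1527 kept their side of the threshold, and 61 of these, not called in either fit, changed sign. Of the rest, 123 lost a call, 55 gained one and 2 reversed with a call, both from day 1 to day 7 after rescaling without satellite-like models (Creld2, -0.32; Kdelr2, -0.0356). The cause of the changes below was not tested, except that rescaling lowers every change from day 1 by construction.

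From day 1 to day 4 the count of genes called higher was 11 under median-ratio scaling, 10 after rescaling and 9 in a fit of only those days. The count called lower was 5, 6 and 0 in the same fits, and 1 with no filter on low values or with a plain variance model. From day 1 to day 7 the count called lower was 1 with no filter and 9 after rescaling. Leaving out each library gave 5 to 23 higher and 0 to 8 lower from day 1 to day 4, 6 to 21 higher and 0 to 6 lower from day 1 to day 7, and 7 to 29 genes changed over the 3 days by the F test.

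Class medians from day 1 to day 4 under median-ratio scaling and after rescaling were 0.32 and 0.11 for chaperones, 0.40 and 0.19 for disulphide isomerases, 1.06 and 0.86 for collagen-folding factors, -0.68 and -0.89 for stress genes, 0.067 and -0.14 for degradation, and 0.23 and 0.020 for transport. A pseudocount of 5 gave 1.05 for collagen-folding factors, and a filter at 5 TPM gave -0.47 for stress genes. Leaving out libraries gave 0.34 to 0.65 for chaperones, 0.51 to 0.70 for disulphide isomerases, 1.05 to 1.22 for collagen-folding factors, -0.61 to -0.27 for stress genes, 0.15 to 0.28 for degradation and 0.35 to 0.40 for transport. From day 4 to day 7 the median was 0.053 for chaperones and 0.066 for stress genes under median-ratio scaling, and 0.085 for stress genes with the filter at 5 TPM. Leaving out libraries gave -0.083 to -0.018 for chaperones, -0.041 to 0.012 for disulphide isomerases, -0.14 to -0.036 for collagen-folding factors, -0.041 to 0.025 for stress genes, -0.24 to 0.0017 for degradation and -0.067 to -0.028 for transport.

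Same-numbered libraries of days 4 and 7 did not deviate together (Pearson's r = 0.0042 over 14373 genes, as a description), so their numbers were not taken as pairs. A fit with a replicate block, which left 1 residual degree of freedom, called 0 genes higher and 0 lower from day 4 to day 7. Replicate number 3 occurs only on day 1, so the block term fits that library exactly. Day 1 then rests on replicate 2 alone, the spread within day 1 is ignored, and a call gained against day 1 is not read as a change. The class medians from day 1 to day 4 in that fit were 0.34 for chaperones, 1.02 for collagen-folding factors and -0.63 for stress genes.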

Other observations

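The ERSE was found in the promoter windows of 27 genes beyond the 8 described. Of these, 8 were tested, and they were singled out here after their values were seen. Ero1lb (Ero1b in the promoter table), an oxidase that recharges disulphide isomerases, stood at 13.96 and 13.04 TPM on day 1, 21.1 and 19.1 TPM on day 4, and 23.6 and 22.3 TPM on day 7. It was called higher on day 4 as deposited (log2 change 0.54, limma adjusted p = 0.0159) and not after rescaling (0.21, adjusted p = 0.209). Zfp57 was also called higher as deposited (0.67, adjusted p = 0.0401) and not after rescaling (adjusted p = 0.238). Alg12, a mannosyltransferase of N-glycan assembly, was called lower in both fits, at 16.3 and 14.9 TPM on day 1 and 10.2 and 10.02 TPM on day 4 (-0.58, adjusted p = 0.0482; -0.92 after rescaling). Hnrnpa3, an RNA-binding protein gene, was called lower in both, from 90.6 and 208 TPM on day 1 to 52.4 and 54.5 TPM on day 4 (-1.35, adjusted p = 0.0289), with day 1 libraries that differed by more than 2-fold. Derl3, a degradation factor, was near the limit of the filter at 0.686 to 1.37 TPM in all libraries and was not called. Adcy3 (0.43, adjusted p = 0.145), Pan2 (-0.24, 0.365) and Xlr3b (0.47, 0.151) were not called either.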
